A study of Canis lupus familiaris with 4 samples.

Results

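The respiratory chain genes described here are the nuclear genes whose products build, or help to build, the 5 enzyme complexes of oxidative phosphorylation. They were taken as every non-control probe whose gene symbol began with NDUFA, NDUFB, NDUFC, NDUFS, NDUFV, UQCR, ATP5, COX4, COX5, COX6, COX7 or COX8, or was one of the succinate dehydrogenase symbols or CYC1. This gave 88 probes for 60 genes among the 43603 probes and 14057 gene names of the array, 76 found by gene name and 12 by the symbol in the probe's description. The rule uses symbols and no measured value, though it was chosen with earlier results of these data known. Of these, 84 probes for 56 genes passed the filter on dim spots, among 28694 probes tested in all. They covered 25 of 26 genes of complex I, 3 of complex II, 5 of complex III, 6 of 8 of complex IV and 8 of complex V, with 9 of 10 assembly factors and relatives of subunits that the same symbols catch.

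RNA came from P114 and CMT-U27, cell lines established from canine mammary cancer. Flow cytometry had been used in both lines to collect the few cells that were positive for Sca1, EpCAM and CD44, a combination taken to mark stem-like cancer cells. The sorted cells of each line were sampled at day 3 either after culture together with tumour-associated macrophages or after culture alone, so both cultures of a line share the sort. Each line had 2 arrays of the 2-colour type, holding co-culture RNA in one dye and single-culture RNA in the other, with the dyes exchanged between the arrays. The labels call the arrays biological replicates but do not tell separate cultures from repeats of an extract, so p-values measure the spread between these arrays, which may be technical. The labels do not say whether macrophages were removed before RNA was taken. In such bulk RNA, fewer cells of a type and less RNA per cell cannot be told apart.

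Complex I, NADH dehydrogenase, and complex II, succinate dehydrogenase, pass electrons to ubiquinone. Complex III passes them on to cytochrome c and complex IV to oxygen, and complex V uses the proton gradient that complexes I, III and IV build up to make ATP. Complexes I, III, IV and V also hold subunits encoded by mitochondrial DNA, so nuclear and mitochondrial transcripts are both needed to build them. In tumours the chain is known as the alternative to glycolysis for ATP.

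The measurements rest on 60-base probes, and 12 of the 84 tested probes span an intron in the canine assembly CanFam3.1, so that they read spliced RNA. The first 3 sequences below are whole probes of that kind, shown because separate probes of NDUFV1 and SDHA read the line difference in the same direction. Each holds at least 1 reading frame without a stop. The remaining ones are the first 30 bases of probes of NDUFC1, NDUFA5, NDUFAF6 and NDUFS6, shown because these genes differed between the lines, and of the 2 UQCRB probes, whose shared 20 bases are in capitals. All are written 5′ to 3′ as the array's design gives them.
NDUFV1, chr18:49883521-49883818, minus strand: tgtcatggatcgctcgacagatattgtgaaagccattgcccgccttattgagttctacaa
SDHA, chr34:11940378-11946163, minus strand: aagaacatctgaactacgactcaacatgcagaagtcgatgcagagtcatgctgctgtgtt
SDHA, chr34:11953636-11954540, minus strand: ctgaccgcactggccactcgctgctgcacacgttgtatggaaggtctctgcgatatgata
NDUFC1, first bases of chr19:3402451-3402510, plus strand: gctgaaggatttactccgtataccaacttt
NDUFA5, first bases of chr14:12008023-12008082, plus strand: ctcctgccaaccaatggaaatggccaatat
NDUFAF6, first bases of chr29:39692404-39692463, plus strand: aaggatacgctactccccttatcactgtat
NDUFS6, first bases of chr34:10989860-10989919, minus strand: tgaagggcctcttgctgttcccggggcacc
UQCRB, first bases of chr29:40742456-40742515, minus strand: ccctcaaataCTTCGAAGAAGTTGGGTAAA
UQCRB, first bases of chr29:40742446-40742505, minus strand: CTTCGAAGAAGTTGGGTAAAcgtgaaatgt

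The 4 arrays came from the same slide, and their small number limits the precision. P114 replicate 1 had 89.4% (Cy3) and 91.7% (Cy5) of its spots well above background, against 57.9% to 65.7% in the channels of the other arrays, and 0 spots were saturated. All 7 epithelial and sort markers on the array were well above background in every channel. Of 19 macrophage markers, CD68 and CD14 were well above background on both arrays of all line and culture combinations. In CMT-U27, 11 of them, among these CSF1R, MRC1 and PTPRC, were so in 0 of 4 channels. In P114 each of the 19 was so in at least 1 channel. There CSF1R, MRC1 and PTPRC were so on 1 of 2 arrays in both co-culture and single culture, and CD86 and CD163 on both arrays of both cultures. The summed normalized intensity of the 6 tested macrophage markers in co-culture and single culture was 1822 and 1867 on P114 replicate 1, 1691 and 1929 on P114 replicate 2, 1580 and 1477 on CMT-U27 replicate 1, and 1760 and 1692 on CMT-U27 replicate 2.

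Co-culture was compared with single culture within each line to ask whether macrophages altered the chain's transcripts. No respiratory chain gene passed the threshold, an adjusted p under 0.05 by limma, in either line or in the difference between lines, and neither did any other probe (0% of the 28694 tested). Each gene is given by its brightest tested probe. Its log2 ratio of co-culture over single culture, as the mean of the arrays, lay between -0.22 and 0.31 in P114, with 24 genes above 0, 32 below and a median of -0.02. In CMT-U27 the ratios lay between -0.19 and 0.18, with 29 above 0 and 27 below. Of all 28694 tested probes 15813 were above 0 in P114 and 19369 in CMT-U27. The counts above 0 given below for each complex are to be read beside these.

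The arrays of a line agreed in sign for 21 of the 56 genes in P114, or 37.5%, against 43.3% of all probes tested. In CMT-U27 this held for 22 genes, or 39.3%, against 50.7%. In 13 genes (23.2%, against 18.2% of all probes) the sign followed the dye rather than the culture on all 4 arrays. ATP5G3, one of the genes for the c subunit of the ATP synthase ring, was the clearest of these. Its log2 ratio was -0.32 and 0.44 on the P114 arrays and 0.21 and -0.60 on the CMT-U27 arrays, so it was high wherever the co-culture was in Cy5. A dye term in the fit takes up such a pattern.

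**Figure D1:**
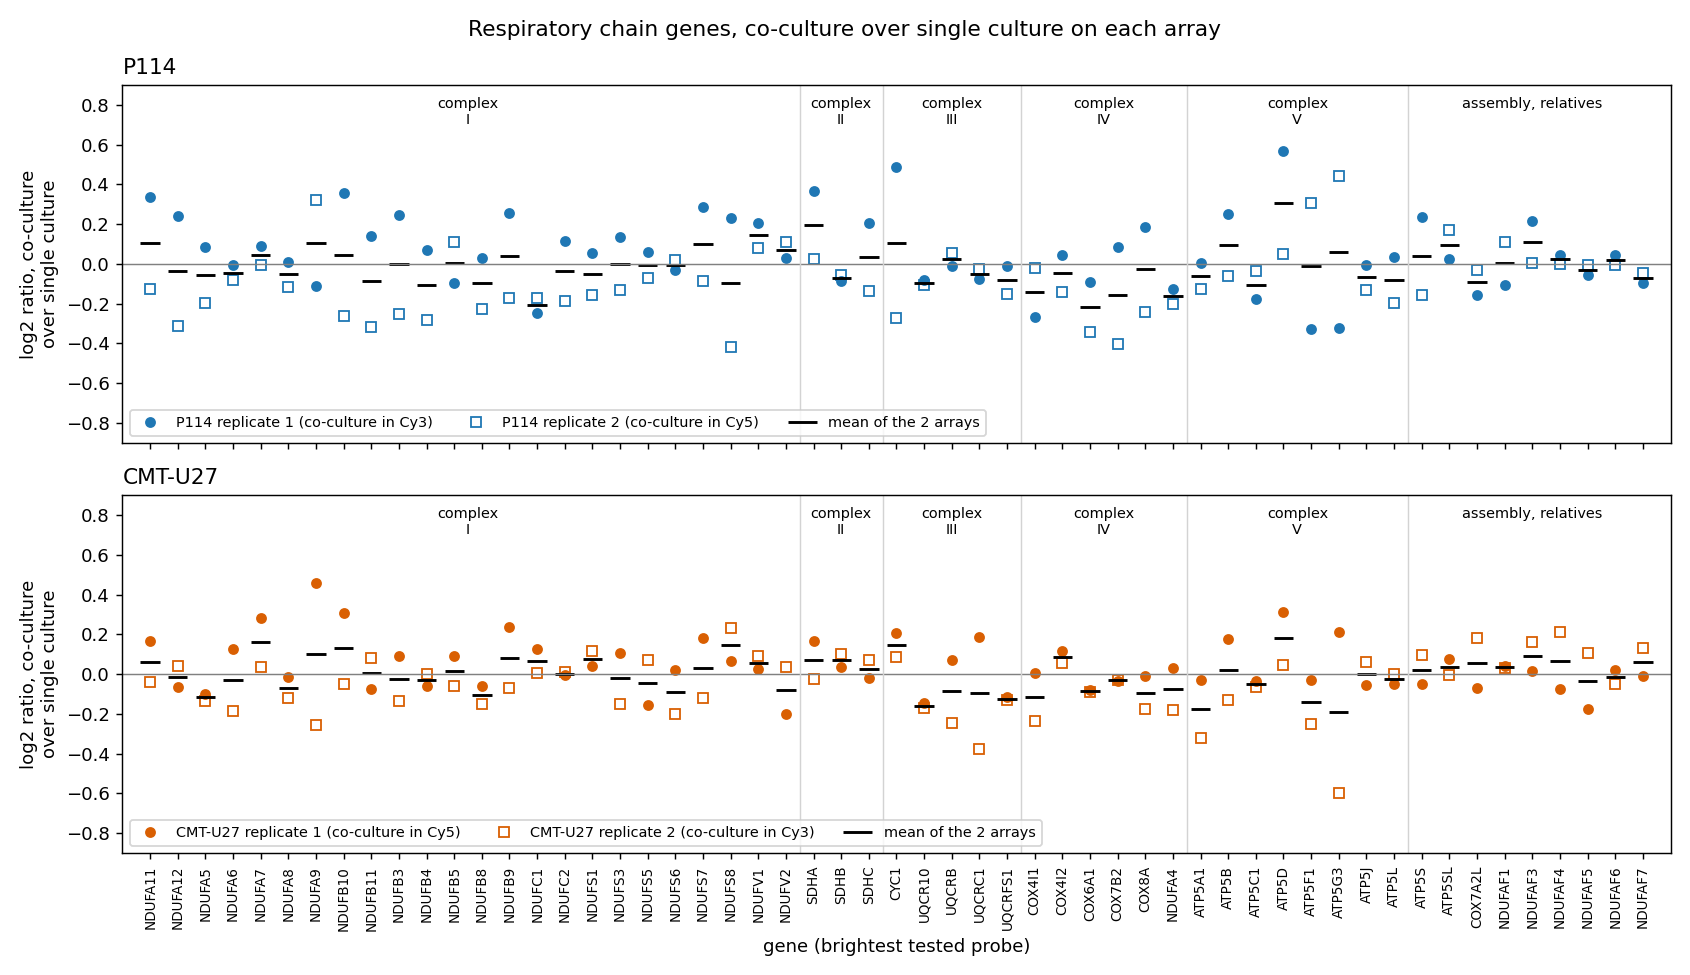
Log2 ratio of co-culture over single culture (vertical axis) for 55 of the 56 genes, grouped by complex, in P114 (top) and CMT-U27 (bottom). Points are single arrays and bars the mean of both arrays of a line. Array values lay between -0.60 and 0.57, and over all 56 genes the arrays of a line differed in sign for 35 in P114 and 34 in CMT-U27.

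The 95% intervals are those of single genes, not adjusted for the number of probes, and describe a gene's ratio relative to probes of the same brightness. The interval of a gene's log2 ratio reached 0.23 to either side in the median gene of each line, 0.17 for ATP5J, a peripheral-stalk subunit of ATP synthase, and 0.54 for NDUFB10, an accessory subunit of complex I. In all 56 genes and both lines it stayed within 1 log2 unit of 0, and so did that of the difference between lines. By the brightest probe, the unadjusted p by limma was under 0.05 for 1 member gene in P114 (NDUFC1), against 6.12% of all probes. In CMT-U27 it was so for 1 (ATP5G3), against 3.23%, and in the difference between lines for both genes, against 2.86%. Over all 84 tested member probes it was so in P114 for 4 probes above 0 and 1 below 0. In CMT-U27 it was so for 0 above 0 and 1 below 0. The gene furthest from 0 was ATP5D in P114, and 2.24% of all tested probes lay further out. In CMT-U27 it was ATP5G3, with 5.08% further out.

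Complex I receives electrons from NADH on a peripheral arm of 7 nuclear-encoded core subunits. Of these core genes 5 of 7 were above 0 in P114 and 5 of 7 in CMT-U27, with medians of 0.07 and 0.06. NDUFV1, which binds NADH, had a log2 ratio of 0.21 and 0.08 on the P114 arrays and 0.02 and 0.09 on the CMT-U27 arrays, and was above 0 on all 4. Its adjusted p by limma was 0.803 in P114. Its other probes, including the one printed above, gave means of 0.30 and 0.32 in P114, where their unadjusted p was 0.041 and 0.026. The 18 accessory genes of complex I had 6 above 0 in P114 and 9 in CMT-U27, with medians of -0.02 and near 0.

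NDUFC1, a small accessory subunit of the membrane arm, was the accessory gene with the lowest ratio in P114. It read -0.25 and -0.17 on the P114 arrays and 0.12 and a value just above 0 on the CMT-U27 arrays. Both P114 arrays were thus below both CMT-U27 arrays. The difference between lines was 0.27 (95% interval 0.02 to 0.52), with an adjusted p of 1.00 by limma. NDUFA7 was the highest accessory gene in CMT-U27, at 0.28 and 0.04 on the arrays, and NDUFA5 the lowest, at -0.10 and -0.13.

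Complex II is built from nuclear genes alone and is shared with the tricarboxylic acid cycle. SDHA, its flavoprotein, read 0.37 and 0.02 on the P114 arrays and 0.16 and -0.02 on the CMT-U27 arrays. SDHB, the iron-sulphur subunit, read -0.09 and -0.06 in P114 and 0.04 and 0.10 in CMT-U27, so the arrays of each line agreed in sign and the lines did not, as in 8.72% of all tested probes. SDHC, a membrane anchor, read 0.21 and -0.13 in P114 and -0.02 and 0.07 in CMT-U27. The smallest adjusted p of the 3 by limma was 0.832 in P114. The array holds no probe named for the other anchor, SDHD.

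In complex III, 2 of 5 genes were above 0 in P114 and 1 of 5 in CMT-U27. CYC1, cytochrome c1, was the one above 0 in both, at 0.48 and -0.27 on the P114 arrays and 0.20 and 0.08 on the CMT-U27 arrays. UQCR10, a small subunit near cytochrome c1, was below 0 on all 4 arrays, at -0.08, -0.11, -0.15 and -0.17. UQCRFS1, the Rieske iron-sulphur protein, was also below 0 on all 4 by its brightest probe, between -0.15 and -0.01. The means of its 3 probes differed by up to 0.15 in P114 and 0.19 in CMT-U27.

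Complex IV had 0 of 6 genes above 0 in P114, with a median of -0.15, and 1 of 6 in CMT-U27, with a median of -0.08. The median of all 28694 tested probes was 0.01 in P114 and 0.02 in CMT-U27. COX6A1 read -0.09 and -0.34 in P114 and -0.08 and -0.09 in CMT-U27. NDUFA4, named as a complex I gene but now counted with complex IV, read -0.13 and -0.20 in P114 and 0.03 and -0.18 in CMT-U27. COX4I1, the common isoform of the largest nuclear-encoded subunit, read -0.27 and -0.02 in P114 and a value near 0 and -0.23 in CMT-U27. The means of its 3 probes differed by up to 0.01 in P114 and 0.12 in CMT-U27, and a pair of them overlaps by 54 bases. COX4I2, the alternative isoform, read 0.04 and -0.14 in P114 and 0.11 and 0.06 in CMT-U27. No gene of the complex was called, and without loess the median was above 0 in both lines, at 0.26 in P114 and 1.47 in CMT-U27. With the scanner software's own ratio the median of complex IV was -0.10 in P114 and 0.02 in CMT-U27.

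The ATP synthase genes had 3 of 8 above 0 in each line. ATP5D, the delta subunit of the central stalk, was above 0 on all 4 arrays, at 0.57 and 0.05 in P114 and 0.31 and 0.05 in CMT-U27. ATP5A1, the alpha subunit of the catalytic head, was lowest in CMT-U27 among genes whose arrays agreed in sign, at -0.03 and -0.32. ATP5C1, the gamma subunit, was below 0 on all 4 arrays, between -0.18 and -0.03. ATP5B, the catalytic beta subunit, gave a mean of 0.10 by its brighter probe and 0.36 by the other in P114. Its adjusted p by limma was 0.797 for the second of these.

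Among the assembly factors and relatives 6 of 9 were above 0 in P114 and 7 of 9 in CMT-U27, with medians of 0.02 and 0.04. NDUFAF3, a complex I assembly factor, was the highest in both lines, at 0.21 and under 0.01 on the P114 arrays and at 0.02 and 0.16 on the CMT-U27 arrays. COX7A2L, which helps to join complexes III and IV into supercomplexes, was the lowest in P114, at -0.15 and -0.03.

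These ratios are relative to other probes of the same brightness, because loess sets the typical ratio at each brightness to 0. That matters for respiratory chain genes, whose transcripts are abundant: 50 of the 56 lay in the brightest 20% of the tested probes. Without loess, each array's ratios were centred on the median of its non-control spots (median centring). The genes' median log2 ratio was then 0.86 and -0.05 in the P114 arrays and 1.47 and 1.46 in the CMT-U27 arrays, replicate 1 first. The brightest 20% of all probes had medians of 0.84, 0.01, 1.34 and 1.50 on the same arrays. With median centring in place of loess all 56 genes were above 0 in both lines and 54 were called in CMT-U27, where 60.4% of all probes were called (17343 of 28694), with a member median of 1.48 against 1.43 for the brightest 20% of probes. In P114 0 were called then, beside 0.0174% of all probes, at medians of 0.40 and 0.43. Whether the bright probes as a whole rose in co-culture or were read more strongly cannot be told apart here.

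**Figure D2:**
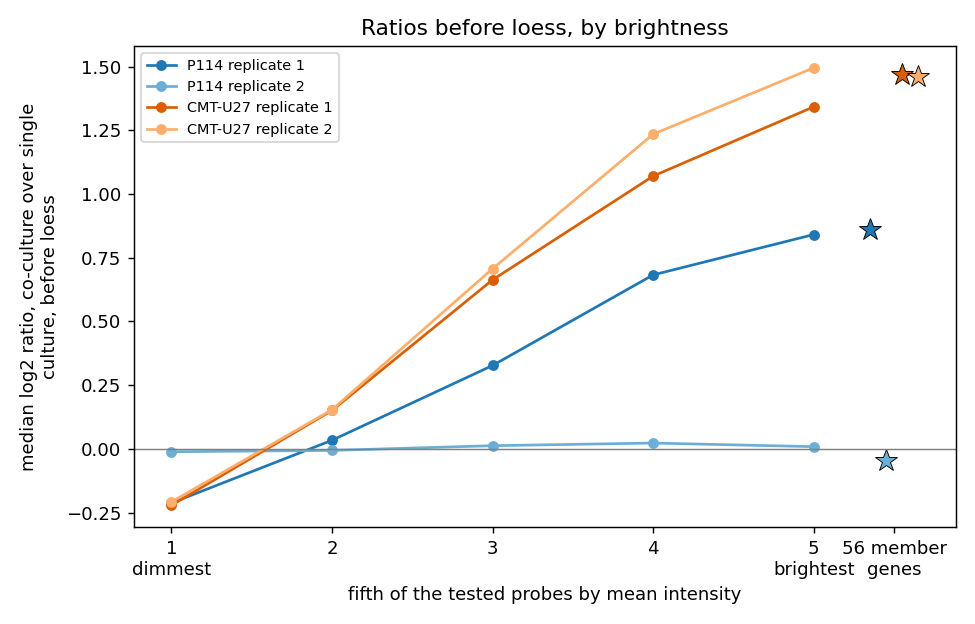
Median log2 ratio of co-culture over single culture before loess, after median centring of each array (vertical axis). Lines show 5 equal groups of the tested probes ordered by brightness and stars the 56 respiratory chain genes, 1 colour per array. The genes' medians of 0.86, -0.05, 1.47 and 1.46 lie beside those of the brightest group of probes on each array.

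P114 was then set against CMT-U27 in single culture. In P114, 2 of the 56 genes were higher (7.12% of all probes were called higher) and 8 were lower (8.03%) at an adjusted p under 0.05 by limma. The 10 genes, each by its brightest probe, are 17.9% of the 56, near the 15.2% of all probes that were called. Over all 84 tested member probes, 2 were called higher and 8 lower. The median log2 difference of P114 over CMT-U27 was -0.15 over the genes and -0.03 over all probes, with 26 genes above 0 and 30 below. The single-culture channels of the lines did not overlap in 43 genes (76.8%, against 70.9% of all probes), 17 of them higher in P114 and 26 lower. In the same channels 4 of 7 epithelial and sort markers were called lower in P114, EPCAM at -2.63, KRT18 at -2.31, KRT19 at -3.91 and CLDN4 at -1.52 on the log2 scale. Of the 7, 6 were below 0 and 1 was above, at 1.45, and 0 were called higher. The macrophage marker CD86 was 2.36 higher. Of the 6 tested macrophage markers 4 were above 0 and 2 below, with a median of 0.16. The part of these markers in the gene differences was not tested.

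**Figure D3:**
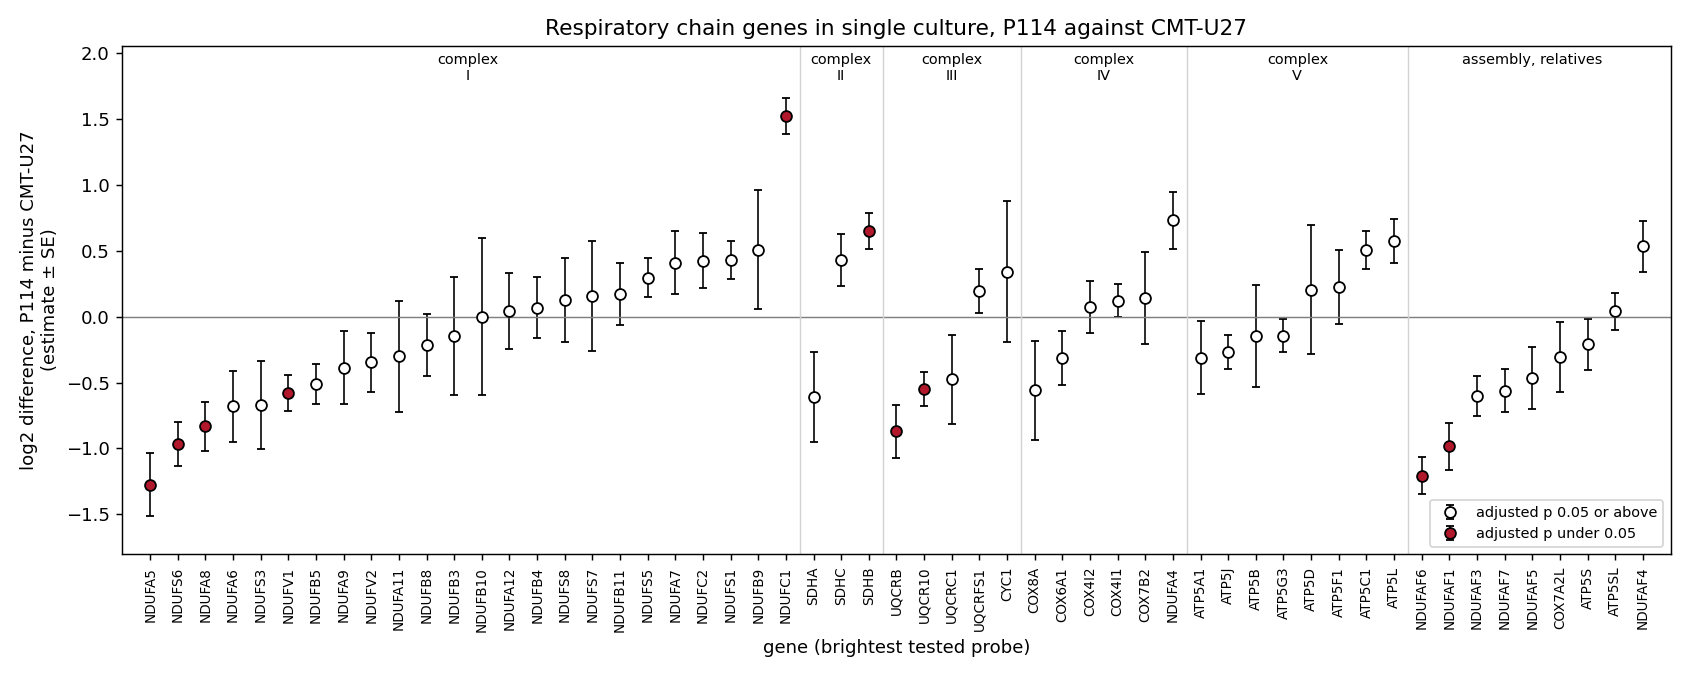
Log2 difference between P114 and CMT-U27 in single culture (vertical axis, estimate ± standard error) for 55 of the 56 genes, ordered within each complex. Red points mark the 10 genes with an adjusted p under 0.05, from -1.27 for NDUFA5 to 1.52 for NDUFC1.

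Complex I held the largest differences in both directions. NDUFC1 had a normalized log2 intensity of 9.97 and 9.83 in P114 and 8.42 and 8.34 in CMT-U27. It was 2.87-fold higher in P114 (log2 1.52 ± 0.14 SE, adjusted p = 0.0021 by limma). NDUFA5, an accessory subunit of the peripheral arm, read 13.30 and 13.32 in P114 and 14.71 and 14.46 in CMT-U27. It was 2.42-fold lower in P114 (log2 -1.27 ± 0.24, adjusted p = 0.022). Both genes had no overlap between the lines, and the gap was several times the distance between arrays of a line.

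NDUFS6, a zinc-binding accessory subunit needed late in assembly, read 13.56 and 13.74 in P114 and 14.56 and 14.67 in CMT-U27, a difference of -0.96 (adjusted p = 0.018 by limma). NDUFA8 read 13.05 and 13.07 against 13.93 and 13.86, a difference of -0.83 (adjusted p = 0.038). Among the core subunits NDUFV1 was lower, at 12.89 and 12.94 against 13.43 and 13.56, a difference of -0.58 (adjusted p = 0.042). The accessory and core genes both split by direction, with 8 of 18 accessory and 4 of 7 core genes above 0. NDUFS3, a core subunit of the peripheral arm, was at -0.67 with an adjusted p of 0.256 by limma. Over all 25 genes of complex I the median was near 0, and it moved between -0.24 and 0.11 when an array was left out.

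In complex II the genes moved apart. SDHB read 13.92 and 14.004 in P114 and 13.29 and 13.33 in CMT-U27, so it was 0.65 higher in P114 (± 0.14 SE, adjusted p = 0.033 by limma). SDHC read 12.34 and 12.66 against 12.06 and 12.08, a difference of 0.43 with an adjusted p of 0.224. SDHA read 11.33 and 11.62 against 12.06 and 12.11, a difference of -0.61 with an adjusted p of 0.306. None of the 3 overlapped between lines, and SDHA stood on the other side of 0 from its partners.

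In complex III, UQCRB, which takes part in binding ubiquinone, read 13.84 and 13.71 in P114 and 14.65 and 14.63 in CMT-U27. It was 1.83-fold lower in P114 (log2 -0.87 ± 0.20 SE, adjusted p = 0.041 by limma). UQCR10 read 14.40 and 14.30 against 14.90 and 14.89, a difference of -0.55 (adjusted p = 0.044). UQCRC1, a core protein, was at -0.47 and CYC1 at 0.34, with adjusted p of 0.420 and 0.736. The standard error of CYC1 was 0.54, among the widest of the 56 genes.

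No gene of complex IV or complex V was called by limma (0 of 6 and 0 of 8), and the unadjusted p was under 0.05 for 1 and 2 of them. Among all tested probes 15.2% were called and 28.9% had an unadjusted p under 0.05. NDUFA4 was closest in complex IV, at 15.04 and 14.87 in P114 against 14.21 and 14.25 in CMT-U27, a difference of 0.73 with an adjusted p of 0.082 by limma. COX4I1 read 15.33 and 15.12 against 15.03 and 15.18 and COX4I2 7.58 and 7.47 against 7.41 and 7.49, so both isoforms overlapped between the lines. COX6A1 was at -0.31 and COX8A at -0.56, with adjusted p of 0.385 and 0.394. In complex V, ATP5L was at 0.57 and ATP5C1 at 0.50, with adjusted p of 0.082 and 0.074. ATP5A1, at 15.83 and 15.92 against 16.16 and 16.21, was at -0.31 with an adjusted p of 0.530.

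Among assembly factors and relatives 7 of 9 genes were below 0 in P114, with a median of -0.47, and 2 of these passed the test. Of all 28694 tested probes 15203 were below 0, and 8.03% were called lower. NDUFAF6, an assembly factor of complex I, read 11.19 and 11.19 in P114 and 12.34 and 12.45 in CMT-U27, 2.31-fold lower (log2 -1.21 ± 0.14 SE, adjusted p = 0.0050 by limma). NDUFAF1, which acts in the assembly of the membrane arm, read 10.90 and 10.95 against 11.92 and 11.90, a difference of -0.98 (adjusted p = 0.020). NDUFAF3 was at -0.60 and NDUFAF7 at -0.56, with adjusted p of 0.053 and 0.082, and NDUFAF4 stood above 0 at 0.53 with an adjusted p of 0.137. With median scaling in place of loess and Aquantile the median of this class was 0.41, against 1.01 for the brightest 20% of all probes under that scaling.

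The differences of the 10 called genes were read again in the co-culture channels, which share the arrays and so are no independent sample. There NDUFC1 was 1.25 higher and SDHB 0.50 higher in P114, and the other 8 were lower, from -0.48 for UQCR10 to -1.21 for NDUFA5. In each of the 10 genes the 4 channels of one line lay wholly above the 4 of the other. Over all 56 genes this held for 35, 13 higher and 22 lower in P114, and over all tested probes for 54.1%, 25.2% higher and 28.8% lower.

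**Figure D4:**
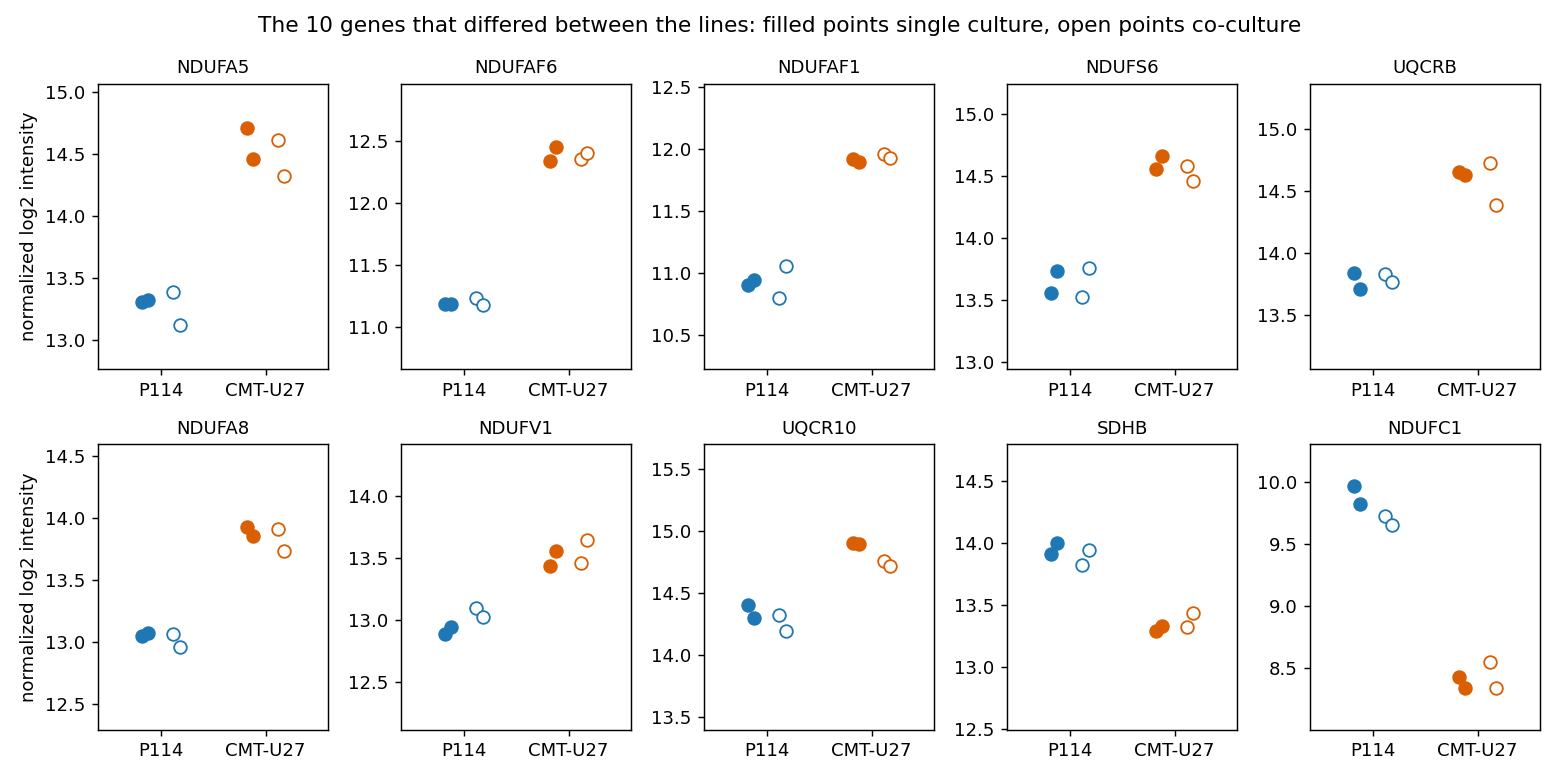
Normalized log2 intensity (vertical axis, the same span of 2.3 units in each panel) of the 10 genes that differed between the lines, in P114 (blue) and CMT-U27 (orange). Filled points are single culture and open points co-culture, 1 point per array, and the lines do not overlap in any of the 10 panels.

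The calls depend on how the channels were scaled, on single arrays and on the handling of background, dim spots and repeated probes. NDUFC1, NDUFA5, NDUFS6, NDUFAF1 and NDUFAF6 were called in 13 of the 14 settings run, the exception being median scaling with no loess, where no probe was called. There NDUFC1 and SDHB stayed above 0 and NDUFA5, NDUFAF1 and NDUFAF6 below, while NDUFS6, NDUFA8, NDUFV1, UQCRB and UQCR10 turned to values between 0.21 and 0.67. All 8 lower genes then still lay below the median of 1.01 in the brightest 20% of probes. NDUFV1, SDHB, UQCR10 and UQCRB were not called without background correction, and SDHB and UQCR10 were not called with quantile scaling. NDUFV1, SDHB and UQCRB lost their calls when the probes of a gene were averaged, and NDUFA8 and UQCRB with no filter on dim probes. UQCR10 lost its call without either CMT-U27 array and NDUFV1 without CMT-U27 replicate 2. Without P114 replicate 1, whose channels held the most detected spots, 34 genes were called beside 47.8% of all probes, and without P114 replicate 2 it was 37 beside 60.7%, with the lone array assumed to vary like the others. All 10 genes were among these.

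Several genes were read by more than 1 probe, which tests the reading and not the replication. The direction of the line difference was the same for all probes in 19 of 22 such genes, the exceptions being ATP5SL, NDUFA12 and UQCRFS1. The 3 probes of NDUFV1 read -0.58, -0.59 and -0.80, and only the first passed the test, with adjusted p of 0.249 and 0.106 by limma for the others. The 2 junction probes of SDHA, printed above, read -0.61 and -0.89. UQCR10 read -0.55 and -0.88 and SDHB 0.65 and 0.38, and the second probe of each did not pass, with adjusted p of 0.054 and 0.574. UQCRB read -0.87 and -0.98, and its second probe did not pass either. ATP5B had the widest range between probes, -0.15 against -0.71. In 8 genes a pair of probes overlaps, by 50 bases in UQCRB, so agreement between those is partly shared sequence.

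**Figure D5:**
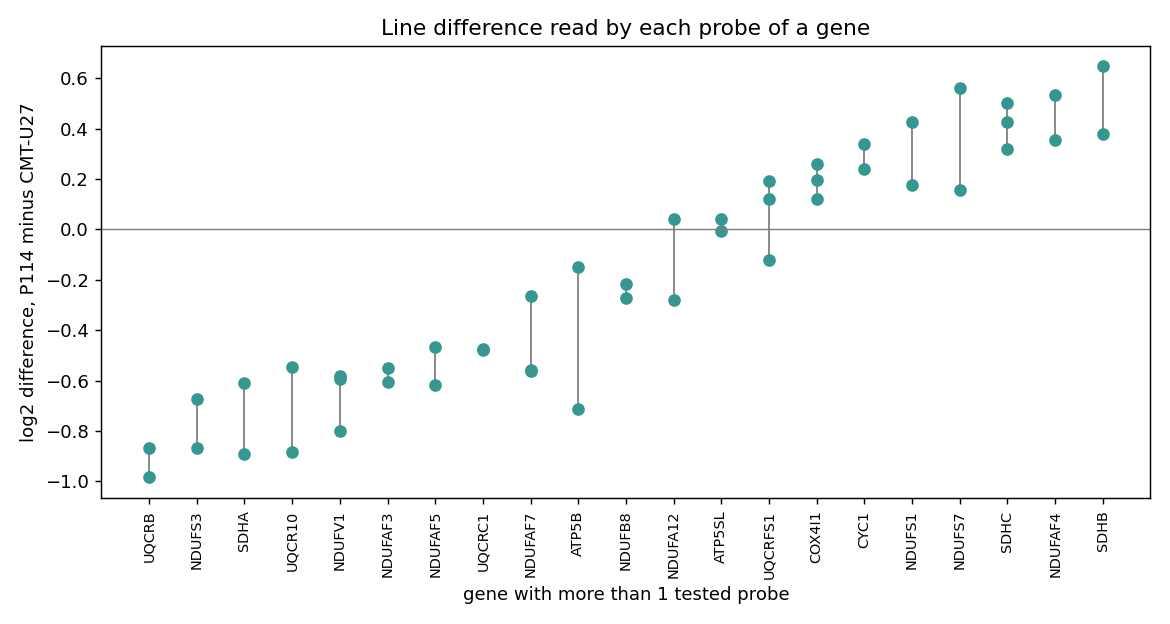
Log2 difference between P114 and CMT-U27 in single culture (vertical axis) read by each tested probe of 21 of the 22 genes with more than 1, ordered by their mean and joined by a line. The probes lie on one side of 0 in all of these except ATP5SL, NDUFA12 and UQCRFS1, and ATP5B spans the widest range, from -0.71 to -0.15.

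Some members lie close together in the genome, a feature that was looked at after the values were known. Within 1500000 bases of each other lie 8 pairs of probes for different genes, and in 6 of these pairs the line differences have the same sign. Both genes were called only in the pair of NDUFAF6 and UQCRB. SDHA enters the pairs with both NDUFS6 and NDUFB5. The share of same-sign pairs among other neighbouring probes was not taken. NDUFAF6 and UQCRB, both lower in P114, lie 1050042 bases apart on chromosome 29 of CanFam3.1. Of the 39 other tested probes from 1000000 bases before to 1000000 bases after them, 33 were also below 0, with a median of -0.31 against -0.08 for the chromosome. NDUFS6 and SDHA, 950518 bases apart on chromosome 34, lay in a stretch with 39 of 53 probes below 0 and a median of -0.27, against -0.17 for the chromosome. NDUFS8 and NDUFV1 on chromosome 18 differ in sign, at 0.13 and -0.58. The DNA copy number of the lines was not measured.

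The partners of these genes were read from lists of other mitochondrial genes. Of the subunits encoded by mitochondrial DNA, which belong to complexes I, III, IV and V, 12 had a tested probe. None passed the limma test in co-culture, and 0 had an unadjusted p under 0.05, with 7 of 12 above 0 in P114 and 6 in CMT-U27. Between the lines 1 was called, beside 15.2% of all tested probes. This was ND6, which is encoded on the opposite strand of mitochondrial DNA from the other subunit genes. It read 9.09 and 9.57 in P114 and 11.67 and 11.46 in CMT-U27, a difference of -2.24 (± 0.31 SE, adjusted p = 0.0086 by limma). The others lay between -0.97 for ND3 and 1.00 for CYTB, neither of which passed.

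Of 26 further assembly factors tested, 0 were called in co-culture, and between lines 1 was higher in P114 (COA1, 0.77) and 2 were lower (TIMMDC1, -1.17, and NUBPL, -0.81). Of the list of electron carriers, supercomplex and replacement subunits 12 of 18 genes were tested, all of them carriers or genes of ubiquinone synthesis. Of these 2 were higher, COQ9 at 0.76 and ETFDH at 0.95, and 1 was lower, COQ5 at -0.63, with a median of 0.42 over the list. CYCS, cytochrome c, was at 0.71 with an adjusted p of 0.085 by limma. The tricarboxylic acid cycle had 2 of 19 higher, SUCLA2 at 0.83 and DLST at 0.58, and 1 lower, PDHA1 at -0.77. The mitochondrial ribosome, which translates the mitochondrial subunits, had 4 of 61 higher and 8 lower, from MRPL44 at 1.20 to MRPL54 at -1.45, with a median of -0.30. Beside the counts of these lists, 7.12% of all tested probes were called higher in P114 and 8.03% lower.

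Of 14 genes of mitochondrial biogenesis 1 was higher in P114, PPRC1 at 0.87, and 0 were lower, beside 7.12% and 8.03% of all probes. TFAM, which packages and transcribes mitochondrial DNA, was at -0.55 and PPARGC1A, a coactivator of biogenesis, at -0.12, with adjusted p of 0.598 and 0.690 by limma. Among 7 genes of redox defence and uncoupling 2 were lower, beside the same 8.03% of all probes. SOD2, the superoxide dismutase of the mitochondrial matrix, read 10.81 and 11.04 in P114 and 12.27 and 12.16 in CMT-U27, a difference of -1.29 (adjusted p = 0.0071). UCP1, an uncoupling protein, was at -2.39. In co-culture 0 genes of any of these lists were called. SOD2 read 0.05 and -0.31 on the P114 arrays and 0.17 and 0.33 on the CMT-U27 arrays, with adjusted p of 0.818 and 1.

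Of the 4 genes with no tested probe, COX7A1, NDUFA1 and NDUFA4L2 were well above background in 2 of 8 channels each, and no level is given for them. The probe listed for COX5A lies on chromosome 27 of CanFam3.1, whereas the gene lies on another chromosome in the RefSeq table, so it was not read as COX5A. The probes of 56 genes lay on the chromosome given in that table. ATP5F1, COX6A1 and UQCRB could not be looked up in it.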

How the data were processed

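Co-culture and single-culture RNA of both lines was measured on 4 Agilent 2-colour arrays of design 021193, with 2 per line. The authors deposited scanner output, in which each spot has a linear intensity and a local background in both channels, written by Agilent Feature Extraction, version 10.10.1.1 per the file headers and 10.7.3.1 per the submitters' processing notes. The log10 ratio of Cy5 over Cy3 deposited by the authors in those files and in their series table was the same in both (largest gap 0), with column medians of 0, and served as an alternative. The deposited flags, scored 0 or 1, marked non-uniform, outlying and well-above-background spots. Dyes and cultures were taken from the channel labels; if these were exchanged in a line, its co-culture ratios would change sign. Replicates were numbered in record order, which pairs nothing.

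Intensities were corrected with normexp (offset 50) and loess within arrays, and spots of a probe were averaged. A probe was kept if some line and culture had it well above background on its 2 arrays (28734 probes), and 40 of these were lost to a marked spot. Ratios were fitted with limma 3.58.1 (R 4.3.3), with a coefficient per line and a dye term, leaving 1 residual and 2.76 prior degrees of freedom. Lines were compared by a separate-channel fit after Aquantile scaling, with a Cy5 term and an intraspot correlation of 0.937, leaving 3 residual and 2.69 prior degrees of freedom. P-values were Benjamini-Hochberg adjusted over all 28694 probes, at a threshold of 0.05. The scripts were tested on simulated data. Plots were made in Python 3.11.15 with matplotlib 3.10.9.

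A gene was shown by its brightest tested probe. The values of 1 member gene, which is included in the counts and medians, are not reported here. Named genes were, per complex and comparison, the highest and lowest among those with the same sign on both arrays or no overlap, up to 5 called genes per direction, fixed subunits and isoforms, and those with the widest range between probes. NDUFA8, ATP5G3, ATP5J, NDUFB10, NDUFS3 and NDUFAF7 and the genes of chromosomal pairs were named after their values were seen. The members, lists and rules were chosen with earlier results of these data known. Gene names were looked up in RefSeq, assembly UU_Cfam_GSD_1.0.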

Additional observations from a re-analysis of the deposited data

Results flagged for a closer look

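In 2 of the 56 genes every array of one line lay on the other side of 0 from every array of the other in co-culture, as 8.72% of all tested probes did. NDUFC1 was below 0 on both P114 arrays and above 0 on both CMT-U27 arrays, a difference of 0.27 (CMT-U27 minus P114). SDHB did the same with a difference of 0.14. Neither difference between lines passed the adjusted threshold by limma.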

How the results depend on the processing

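No respiratory chain gene was called in co-culture under any alternative except median centring in place of loess, where 54 were called in CMT-U27 and 54 in the difference between lines. The medians were then 0.40 in P114, 1.48 in CMT-U27 and 1.04 for the difference, with 5, 17343 and 12449 of all probes called. The median of all probes moved to 0.16, 0.68 and 0.51 under that centring. Without background correction 12 probes were called in CMT-U27 and 1 in the difference, and with the filter on all channels 1 in CMT-U27. With an array left out the fits had no dye term, and a line with 1 array left was read from that array alone. The genes' median then lay between -0.10 and 0.04 in P114, -0.03 and 0.02 in CMT-U27 and -0.082 and 0.11 for the difference. The value of 0.11 came without P114 replicate 1. The calls among all probes lay between 0 and 64 (P114), 0 and 17 (CMT-U27) and 0 and 61 (difference), the highest being without P114 replicate 2, without CMT-U27 replicate 1 and without P114 replicate 2.

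For the lines in single culture the median was -0.062 with quantile scaling over all channels and 0.96 with median scaling and no loess, under which the median of all probes was 0.25 and 0 genes and 0 probes were called (2220 at an unadjusted p under 0.05). NDUFA8, NDUFS6, NDUFV1, UQCR10 and UQCRB reversed there to 0.24, 0.21, 0.45, 0.67 and 0.32. The genes called were 6 without background correction, 26 with no Cy5 term and 27 in the single-culture channels alone, and 9381 and 10335 of all probes were called in the last pair. With an array left out the median lay between -0.19 and 0.0076, 11 to 37 genes were called, and 5788 to 17427 of all probes. These fits kept the intraspot correlation of all 4 arrays, because 3 arrays leave too few degrees of freedom to estimate it. The causes were not tested. Co-culture and single culture were paired within each array, and no replicate block was fitted across the lines, because the labels give no replicate numbers.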
